A study of Mus musculus with 29 samples.

Results

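A set of 8 genes that serve the engulfment of cells and debris marked by exposed phosphatidylserine was followed through TRAP-RNAseq of astrocytes and microglia from mouse brain: the TAM receptors Mertk, Axl and Tyro3, their ligands Gas6 and Pros1, the bridging protein Mfge8, the receptor Megf10 and the adaptor Gulp1. They were taken by gene symbol from the authors' table and make up 8 of its 36172 gene rows, 1 row each, and all 8 passed the filter on low counts in every comparison. The 29 libraries came from 2 lines. In Aldh1l1-NuTRAP mice, which carried Aldh1l1-Cre/Ert2+ and NuTRAP+, tamoxifen turned on an EGFP-tagged ribosomal protein in cells that use the Aldh1l1 promoter, chiefly astrocytes. In Cx3cr1-NuTRAP mice, which carried Cx3cr1-Cre/Ert2+ and NuTRAP+, the Cre sits in the Cx3cr1 locus and the tag appears in cells that use that gene, which are microglia and also the macrophages at the borders of the brain. All mice of both lines, males and females, received tamoxifen at about 3 months of age, and no untreated or Cre-negative group was analysed here. Homogenate of a hemibrain from each mouse was bound with anti-GFP beads. The bead-bound RNA is called the positive fraction, the unbound RNA the negative fraction, and the cleared homogenate before binding the input. Positive and negative fractions were available for 3 Aldh1l1-NuTRAP mice (290, 293 and 294). Positive and negative fractions and input were available for 6 Cx3cr1-NuTRAP mice (155, 192, 194, 209, 210 and 277), and conventionally isolated whole tissue RNA for all of these but mouse 155.

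Cells that engulf debris, dead cells and synapses recognise phosphatidylserine, a lipid that healthy cells keep on the inner face of the membrane. Mertk, Axl and Tyro3 are receptor tyrosine kinases that do not touch the lipid themselves: the vitamin K-dependent proteins Gas6 and Pros1 bind it at one end and a TAM receptor at the other. Axl answers to Gas6, whereas Mertk and Tyro3 bind both ligands. Mfge8 bridges phosphatidylserine to the integrin receptors that contain the αv chain. Megf10 is a transmembrane receptor related to Drosophila Draper, and Gulp1 is an adaptor whose phosphotyrosine-binding domain attaches to the tails of engulfment receptors of the Megf10 and Lrp1 kind. In brain, Mertk has been studied in both microglia and astrocytes, Megf10 chiefly in astrocytes, and Axl chiefly in microglia that respond to injury.

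The libraries held 4261358 to 26858047 counts, the fewest being in whole tissue of mouse 210. Levels are given as CPM, the counts of a gene per 1000000 counts of its library. In the Aldh1l1 positive fraction Aldh1l1 stood at 499 to 579 CPM against 62.5 to 86.8 in the negative fraction, and all 10 of 10 astrocyte markers were higher (median log2 fold change 3.25). In the Cx3cr1 positive fraction Cx3cr1 stood at 199 to 436 CPM against 25.0 to 28.9 in the input, and 10 of 10 microglia markers were higher than in the input (median 3.53), as were the 3 of 7 border macrophage markers with over 20 counts in every library of both groups (median 2.92). The 4 others (Lyve1, Pf4, Ms4a7 and Cbr2) entered that test only through the positive fraction, which fixes their direction, and are not counted. Markers of other cells were also measured in that fraction. The summed level of 8 neuron markers was 5685 to 8856 CPM there, against 7922 to 8301 in the input, and was 1846 to 2314 CPM in the Aldh1l1 positive fraction. The summed level of 10 astrocyte markers was 2200 to 3235 CPM in the Cx3cr1 positive fraction and 3475 to 3997 CPM in the input. In the Aldh1l1 positive fraction all 6 choroid plexus markers were also higher than in the negative fraction (median 2.45), as were 2 of 3 ependymal markers (median 1.72). No marker of these 6 lists was at 0 in every library of a group. The part of any of these cells in the results below was not tested.

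The members lie on 6 chromosomes, and the 250 bases before the start of transcription are shown for 4 of them, chosen by their differences in level. Of the members, Axl and Mfge8 had the largest differences in favour of the Aldh1l1 positive fraction, and Mertk and Pros1 the largest rises in the Cx3cr1 positive fraction. The sequences are from RefSeq on GRCm38.p6, the assembly also called mm10, and run 5′ to 3′ on the strand of the gene up to the base before the start that RefSeq gives, which for Mertk and Pros1 lies upstream of the start in the authors' table. Of the 8 members, 7 matched the promoter table. Capitals mark each GGGCGG (the GC box that Sp1 binds) and each GAGGAA (a core bound by the ETS factor PU.1), either as written or as its reverse complement.
Mertk, chr2:128698665-128698914, plus strand: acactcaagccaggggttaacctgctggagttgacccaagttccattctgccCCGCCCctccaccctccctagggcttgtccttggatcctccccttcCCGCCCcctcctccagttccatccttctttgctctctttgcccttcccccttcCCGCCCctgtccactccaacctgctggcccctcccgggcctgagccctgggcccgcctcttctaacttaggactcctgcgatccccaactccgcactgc
Pros1, chr16:62854057-62854306, plus strand: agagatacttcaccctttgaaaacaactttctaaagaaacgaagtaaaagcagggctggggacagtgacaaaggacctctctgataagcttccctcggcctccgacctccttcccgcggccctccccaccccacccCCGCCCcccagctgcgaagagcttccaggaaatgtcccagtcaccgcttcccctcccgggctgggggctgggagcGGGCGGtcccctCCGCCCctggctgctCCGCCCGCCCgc
Axl, chr7:25788734-25788983, minus strand: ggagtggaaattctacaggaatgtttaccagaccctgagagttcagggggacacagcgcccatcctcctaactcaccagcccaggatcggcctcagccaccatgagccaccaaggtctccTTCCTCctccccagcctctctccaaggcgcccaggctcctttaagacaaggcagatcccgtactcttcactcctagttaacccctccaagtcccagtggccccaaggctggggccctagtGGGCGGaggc
Mfge8, chr7:79149061-79149310, minus strand: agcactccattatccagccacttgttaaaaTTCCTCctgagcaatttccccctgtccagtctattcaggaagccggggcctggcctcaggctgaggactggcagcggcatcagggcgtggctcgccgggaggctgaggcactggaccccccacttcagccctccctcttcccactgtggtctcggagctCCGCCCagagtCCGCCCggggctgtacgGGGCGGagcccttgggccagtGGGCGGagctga

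All 7 members in the table held at least 1 GC box in this window, from 1 in Axl and Gulp1 to 5 in Pros1, where the last pair overlap each other, and 32.7% of all 32851 promoters in the table held 1 or more. GAGGAA was found once in Axl and once in Mfge8 and in none of Mertk, Tyro3, Gas6, Pros1 and Gulp1, against 23.3% of all promoters. The AP-1 motif TGANTCA was in none of the 7, against 6.75% of all promoters. No match of one motif overlapped a match of another. The windows of the 7 were 54.8% to 73.2% G or C, with Tyro3 the highest and Gas6 the lowest, and the median over all promoters was 52.4%. For Gas6 the GENCODE start (13494490) lies downstream of the start RefSeq gives (13494535), and its window could not be matched to a GENCODE transcript as the 6 others were. Gulp1 was next at 56.8%. A match describes the letters and does not show binding, and a link between these sequences and the levels of the genes was not tested.

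Axl, the TAM receptor that answers to Gas6, lies at chr7:25756500-25788733 on the minus strand. It was at 240, 408 and 350 CPM in the Aldh1l1 positive fractions of mice 290, 293 and 294, and at 38.5, 46.2 and 42.2 CPM in the negative fractions of the same mice. For the Cx3cr1 positive fraction its lowest, median and highest levels were 41.8, 45.3 and 53.0 CPM. The Aldh1l1 positive fraction therefore lay far above every other library, with no overlap, and the Cx3cr1 positive fraction lay below the input. Axl was 9.98-fold higher in the Aldh1l1 positive than in the negative fraction (log2 fold change 3.32 ± 0.23 SE, adjusted p = 6.28e-05), and 0.89% of the 13324 genes tested there had a larger fold change. Here and below, a fold change is from edgeR after scaling by TMM, the adjusted p is over all genes tested, and a gene is said to be higher or lower where that p is under 0.05. In these fractions fewer cells of a type and less RNA per cell cannot be told apart. TMM rescales the libraries, so that a fold change can differ from the ratio of the CPM values. Among the Cx3cr1 fractions, Axl in the positive fraction fell by 0.50 on the log2 scale against the input (SE 0.08, adjusted p = 9.95e-05) and by 0.75 against whole tissue (SE 0.07, adjusted p = 3.06e-06). Inputs held 59.8 to 75.7 CPM, whole tissue held 79.7, 75.0, 81.4, 80.7 and 78.1 CPM in mice 192, 194, 209, 210 and 277, and none of these overlapped the positive fraction. Against the negative fraction, at 42.6 to 60.6 CPM, the difference was -0.25 (SE 0.09, adjusted p = 0.0546). The lowest of those libraries was mouse 155, and without that mouse Axl was lower (-0.30, adjusted p = 0.00503). It passed the threshold in 4 of the 13 settings tried for this comparison, and missed it in the other 9. In the Cx3cr1 positive fraction 7 of 10 astrocyte markers were lower than in the input (median -0.48). Against whole tissue 10 of 10 were lower (median -0.63), and 0 were higher in either comparison. Over all tested genes 25.6% and 24.4% were lower. The part of astrocytes in the fall of Axl was not tested.

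Mertk, which binds both Gas6 and Pros1, lies at chr2:128698997-128802188 on the plus strand. It was the TAM receptor that rose in both lines. In the Aldh1l1 positive fractions of mice 290, 293 and 294 it was at 31.1, 122 and 106 CPM, and in the negative fractions at 12.8, 28.9 and 28.5 CPM. Mouse 290 was far below the other mice in both fractions, although its positive fraction still exceeded every negative fraction. Mertk was 4.65-fold higher in the Aldh1l1 positive fraction (2.22 ± 0.52 SE, adjusted p = 0.00964). That call was lost without mouse 293 (2.03, adjusted p = 0.0588) and without mouse 294 (2.19, adjusted p = 0.0541), and each of these fits had 2 mice a group. With the mouse as a block the same difference was 2.14 ± 0.15 (adjusted p = 4.26e-07). The library of mouse 290 was also low in the astrocyte water channel Aqp4, at 268 CPM against 500 and 557, and its summed astrocyte markers were 11660 CPM against 19658 and 17942. Mertk in the Cx3cr1 positive fraction ranged from 45.9 to 90.7 CPM with a median of 57.6, and no input (23.8 to 33.7), negative fraction (13.6 to 27.7) or whole tissue (23.9, 24.3, 20, 27.5 and 27) reached its lowest value. It was 2.08-fold higher than in the input (1.06 ± 0.15, adjusted p = 6.24e-05), 2.63-fold higher than in the negative fraction (1.39 ± 0.18, adjusted p = 5.37e-05) and 2.55-fold higher than in whole tissue (1.35 ± 0.17, adjusted p = 4.08e-05). The highest value belonged to mouse 194, whose positive fraction also held the most summed microglia markers (7647 CPM, against 3171 to 4991 in the others) and the most summed border macrophage markers (248 against 75.1 to 110). Without this mouse the rise over the input was 0.92 (adjusted p = 3.31e-05).

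Tyro3, the TAM receptor best known from neurons and myelinating cells, lies at chr2:119799514-119818103 on the plus strand. In the Aldh1l1 line it moved against Axl and Mertk. Its Aldh1l1 positive fractions held 85.0, 82.1 and 87.9 CPM and the negative fractions 214, 235 and 227 CPM. The 3 positive fractions were nearly alike and below each of the other 26 libraries. Tyro3 fell by 1.06 on the log2 scale between them (SE 0.13, adjusted p = 0.000609). In that comparison 8 of 8 neuron markers fell (median -1.58; summed 1846 to 2314 CPM against 8215 to 8646) and so did 8 of 8 oligodendrocyte markers (median -2.89; summed 791 to 911 CPM against 5719 to 7021) and 4 of 5 markers of oligodendrocyte precursors (median -2.18), and their part in the fall of Tyro3 was not tested. In the Cx3cr1 positive fraction, at 152 to 226 CPM, Tyro3 differed from the input by -0.12 (95% confidence interval -0.34 to 0.09, adjusted p = 0.328) and from the negative fraction by -0.14 (-0.37 to 0.08, adjusted p = 0.342). It was 1.34-fold higher than in whole tissue (0.42 ± 0.12, adjusted p = 0.0119), where it was at 147, 144, 119, 171 and 146 CPM. The input, before any binding to beads, was also above whole tissue in Tyro3 (0.54 ± 0.09, adjusted p = 0.000443). The call for the positive fraction over whole tissue was lost without the whole tissue of mouse 209, its lowest library (0.30, adjusted p = 0.0644). In the comparison with whole tissue, here and for the other members, 10 of 10 microglia markers were higher (median 3.60), while 8 of 8 oligodendrocyte markers (median -1.34; summed 1265 to 3328 CPM against 6086 to 8296), 6 of 8 endothelial markers (median -1.18), 4 of the 6 pericyte and smooth muscle markers over 20 counts in both groups (median -1.0), 3 of 3 ependymal markers (median -1.0), 4 of 5 markers of oligodendrocyte precursors (median -0.99) and 10 of 10 astrocyte markers (median -0.63) were lower. Of the neuron markers, 3 of 8 were higher and 1 lower. Among all genes over 20 counts in both groups 25.6% were higher and 26.1% lower. In the comparison with the negative fraction 7 of 8 oligodendrocyte markers (median -0.70), 4 of 5 markers of oligodendrocyte precursors (median -0.55), 8 of 10 astrocyte markers (median -0.48) and 3 of 6 choroid plexus markers (median -0.63) were lower and 2 of 8 endothelial markers higher, where 11.9% of all genes over 20 counts in both groups were higher and 11.9% lower. The part of these cells in the differences from whole tissue and from the negative fraction was not tested.

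**Figure D1:**
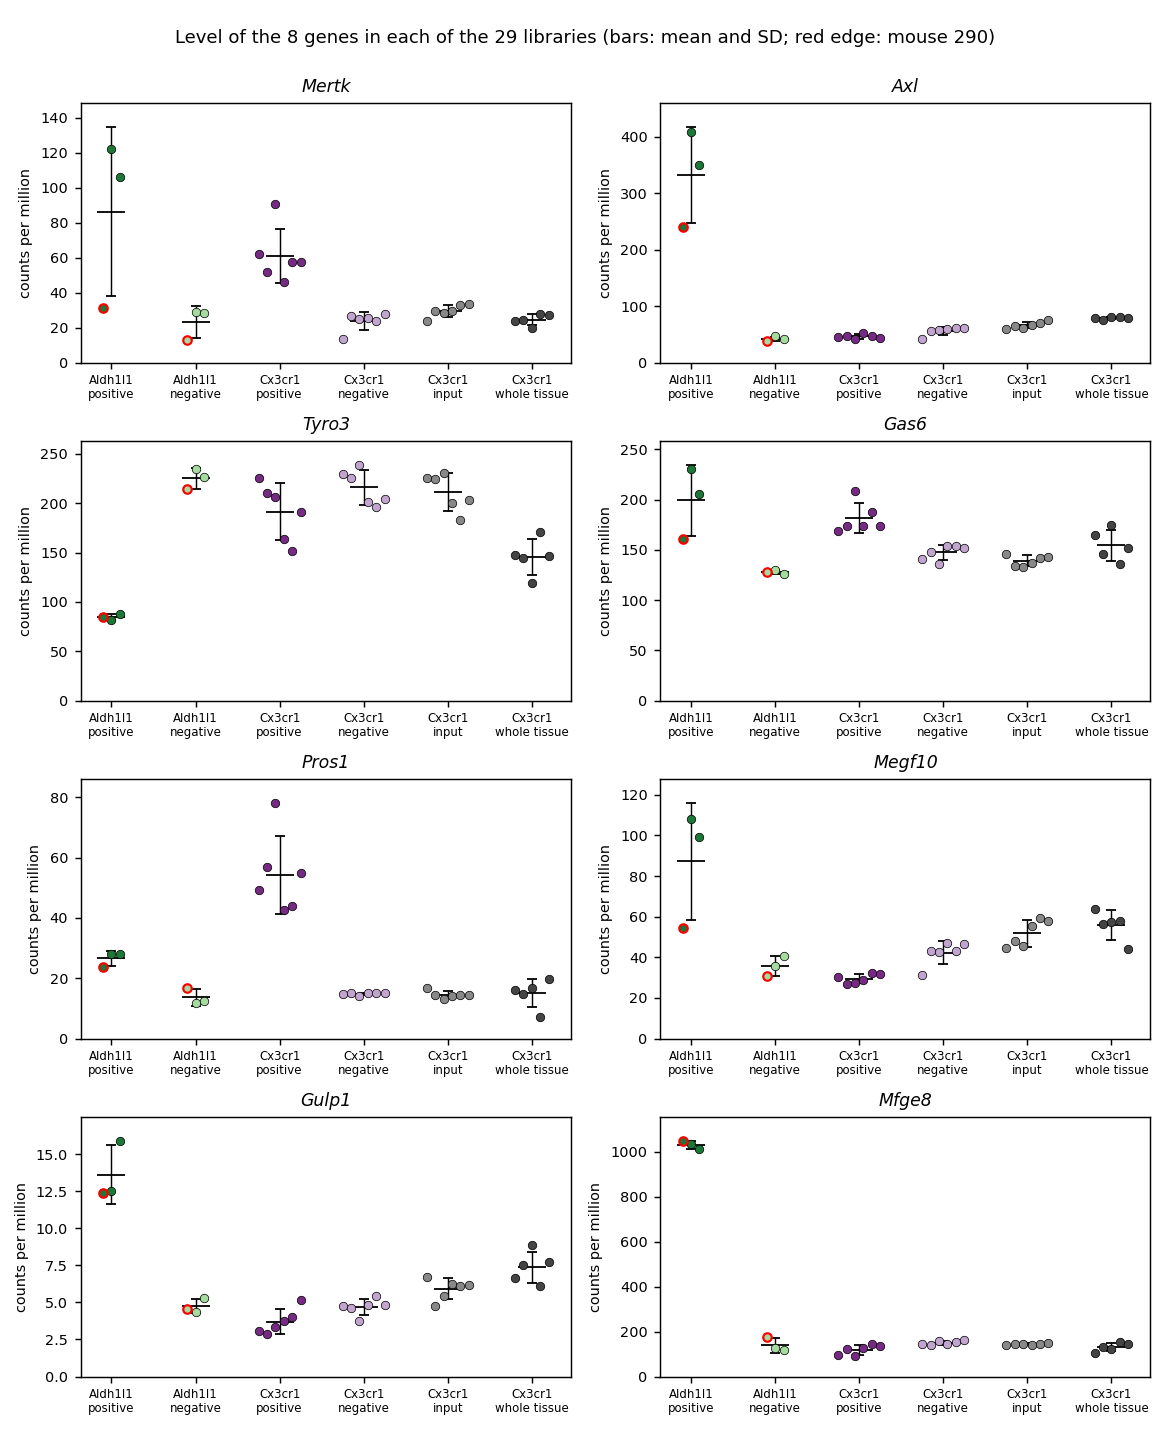
CPM (linear axis from 0) of each of the 8 genes in the 29 libraries, by line and fraction; each point is 1 mouse, bars are the mean and SD, and points with a red edge are mouse 290. Axl, Gulp1 and Mfge8 in the Aldh1l1 positive fraction and Pros1 in the Cx3cr1 positive fraction (42.7 to 78.2) stood apart from every other group, whereas Tyro3 was lowest in the Aldh1l1 positive fraction (82.1 to 87.9).

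Gas6, the ligand of all 3 TAM receptors, lies at chr8:13465374-13494535 on the minus strand. It was at 126 CPM or more in every library. The Aldh1l1 positive fractions held 161, 231 and 206 CPM and the negative fractions 128, 130 and 126 CPM. Every positive fraction exceeded every negative fraction, with mouse 290 again the lowest. The rise was 1.98-fold (0.98 ± 0.17, adjusted p = 0.00236), and without mouse 293 it was 0.86 (adjusted p = 0.0536). Gas6 in the Cx3cr1 positive fraction ranged from 169 to 209 CPM, above all inputs (133 to 146) and negative fractions (136 to 154) and overlapping whole tissue (165, 146, 175, 136 and 152). It was 1.32-fold higher than in the input (0.40 ± 0.06, adjusted p = 0.000174) and 1.25-fold higher than in the negative fraction (0.33 ± 0.07, adjusted p = 0.00359). Besides the microglia markers, 3 of 8 endothelial markers were higher than in the input, Cldn5 (0.61), Pecam1 (0.78) and Ly6c1 (0.98). The median of the 8 was 0.2, and 23.3% of all tested genes were higher. Their summed level was 102 to 216 CPM against 114 to 140, and the part of endothelial cells in the rise of Gas6 was not tested. Against whole tissue it was 1.19-fold higher (0.25 ± 0.09, adjusted p = 0.0294), a call that was lost with the mouse as a block (0.26, adjusted p = 0.0805), with the size factors of DESeq2 (0.23, adjusted p = 0.0506), with no filter on low counts (0.23, adjusted p = 0.0811) and when the positive fraction of mouse 194 or the whole tissue of mouse 194, 209, 210 or 277 was left out (0.18 to 0.28 over all settings).

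Pros1, which encodes protein S and serves Mertk and Tyro3, lies at chr16:62854334-62929340 on the plus strand. It was the member with the strongest rise in the Cx3cr1 positive fraction, where mice 155, 192, 194, 209, 210 and 277 held 49.2, 56.8, 78.2, 42.7, 44.0 and 54.8 CPM. Inputs held 13.2 to 16.7, negative fractions 14 to 15.1, and whole tissue 16.2, 14.9, 16.8, 7.27 and 19.7 CPM. The lowest positive fraction was thus well above the highest of these, and mouse 194 was again at the top. Pros1 was 3.79-fold higher than in the input (1.92 ± 0.14, adjusted p = 9.22e-08), 3.74-fold higher than in the negative fraction (1.90 ± 0.14, adjusted p = 1e-07) and 3.59-fold higher than in whole tissue (1.84 ± 0.22, adjusted p = 2.17e-05). Only 2.84% of the 13840 genes tested against the input rose more. Pros1 rose in the Aldh1l1 line too, from 16.9, 11.8 and 12.4 CPM in the negative to 23.8, 28.0 and 28.1 CPM in the positive fractions (2.48-fold, 1.31 ± 0.20, adjusted p = 0.00149). These groups did not overlap, and in mouse 290 the gap was the smallest. As for Mertk, the markers of microglia and of border macrophages moved with Pros1 in the Cx3cr1 positive fraction (border macrophage markers summed to 75.1 to 248 CPM against 11.6 to 26.9 in the input), and which of these cells carried it was not tested.

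Mfge8, the bridge to αv integrins, lies at chr7:79133768-79149060 on the minus strand. It was the most abundant member in the Aldh1l1 positive fraction, also per length of its exons, and the one with the largest difference between the positive fractions of the lines. The Aldh1l1 positive fractions held 1049, 1033 and 1014 CPM, a spread of SD 17.4 (n = 3), and the negative fractions 176, 125 and 116 CPM. Mouse 290, low in Mertk, Axl, Gas6 and Megf10, was not low in Mfge8. The rise was 9.42-fold (3.24 ± 0.21, adjusted p = 5.38e-05). In the Cx3cr1 line Mfge8 ranged from 90.9 to 146 CPM in the positive fraction, 140 to 151 in the input and 139 to 162 in the negative fraction, and was 104, 131, 124, 153 and 144 CPM in whole tissue. The positive fraction overlapped each of these groups. Mfge8 was lower than in the input (-0.27 ± 0.10, adjusted p = 0.0333) and than in the negative fraction (-0.31 ± 0.10, adjusted p = 0.0407), but each call was lost when any of mice 155, 192, 194, 209 and 277 was left out (without mouse 194, -0.17 with adjusted p = 0.132 and -0.23 with adjusted p = 0.137). The call against the input was also lost with all groups in one fit (-0.24, adjusted p = 0.0547), and that against the negative fraction with the mouse as a block (-0.33, adjusted p = 0.0595). Against whole tissue the difference was -0.12 (-0.39 to 0.15, adjusted p = 0.433).

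Megf10, the Draper relative, lies at chr18:57133090-57297467 on the plus strand. It was at 54.3, 108 and 99.4 CPM in the Aldh1l1 positive fractions and at 30.6, 35.8 and 40.4 CPM in the negative fractions. The groups did not overlap, with mouse 290 the lowest of its fraction. Megf10 was 3.10-fold higher in the positive fraction (1.63 ± 0.26, adjusted p = 0.00186). The Cx3cr1 positive fraction held Megf10 at 26.6 to 32.4 CPM, below every input (44.4 to 59.4) and every whole tissue library (64.0, 56.6, 57.4, 57.7 and 43.9). It fell by 0.80 on the log2 scale against the input (SE 0.09, adjusted p = 9.14e-06), by 0.49 against the negative fraction (SE 0.10, adjusted p = 0.00197) and by 0.90 against whole tissue (SE 0.10, adjusted p = 1.62e-05). In the comparison with the input 7 of 10 astrocyte markers fell as well, with a median of -0.48, as did 7 of 8 oligodendrocyte markers (median -0.64) and 4 of 5 markers of oligodendrocyte precursors (median -0.73), and their part in the fall of Megf10 was not tested.

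Gulp1, the adaptor, lies at chr1:44551671-44796836 on the plus strand and had the lowest counts of the members, as few as 26 in a library. Its Aldh1l1 positive fractions held 12.4, 12.5 and 15.9 CPM and the negative fractions 4.55, 4.38 and 5.28 CPM. There was no overlap, and no other library of either line exceeded 8.85 CPM. The rise was 3.64-fold (1.86 ± 0.20, adjusted p = 0.000327). Gulp1 ranged in the Cx3cr1 positive fraction from 2.84 to 5.17 CPM. It fell by 0.66 on the log2 scale against the input (SE 0.15, adjusted p = 0.00266) and by 0.99 against whole tissue (SE 0.17, adjusted p = 0.000452), and differed from the negative fraction by -0.32 (-0.66 to 0.02, adjusted p = 0.153). As given for Axl, astrocyte markers were also lower than in the input and whole tissue, and the part of astrocytes in the fall of Gulp1 was not tested.

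Counted over the members, 7 of 8 were higher and 1 of 8 lower in the Aldh1l1 positive fraction than in the negative fraction, where 26.8% of all tested genes were higher and 24.8% lower. In the Cx3cr1 positive fraction 3 members (Mertk, Gas6 and Pros1) were higher and 4 (Axl, Megf10, Gulp1 and Mfge8) lower than in the input, against 23.3% and 25.6% of all tested genes. Against the negative fraction 3 were higher and 2 lower (12.8% and 11.6% of all tested genes), and against whole tissue 4 were higher and 3 lower (27.5% and 24.4%). Mertk, Gas6 and Pros1 were higher in all 3 of these comparisons, which share the positive libraries. In both lines, then, a large share of the transcriptome differed between fractions, and the share of members called is read against that background. Taken within each mouse, the log2 ratio of positive over negative fraction was above 0 in 3 of 3 Aldh1l1-NuTRAP mice for every member but Tyro3, which was below 0 in 3 of 3. In the Cx3cr1-NuTRAP mice the ratio of positive fraction over input was above 0 in 6 of 6 for Mertk (0.61 to 1.74), Gas6 (0.28 to 0.74) and Pros1 (1.57 to 2.64). It was below 0 in 6 of 6 for Axl (-0.78 to -0.32), Megf10 (-0.99 to -0.43) and Gulp1 (-1.0 to -0.27), and below 0 in 5 of 6 for Tyro3 and Mfge8.

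**Figure D2:**
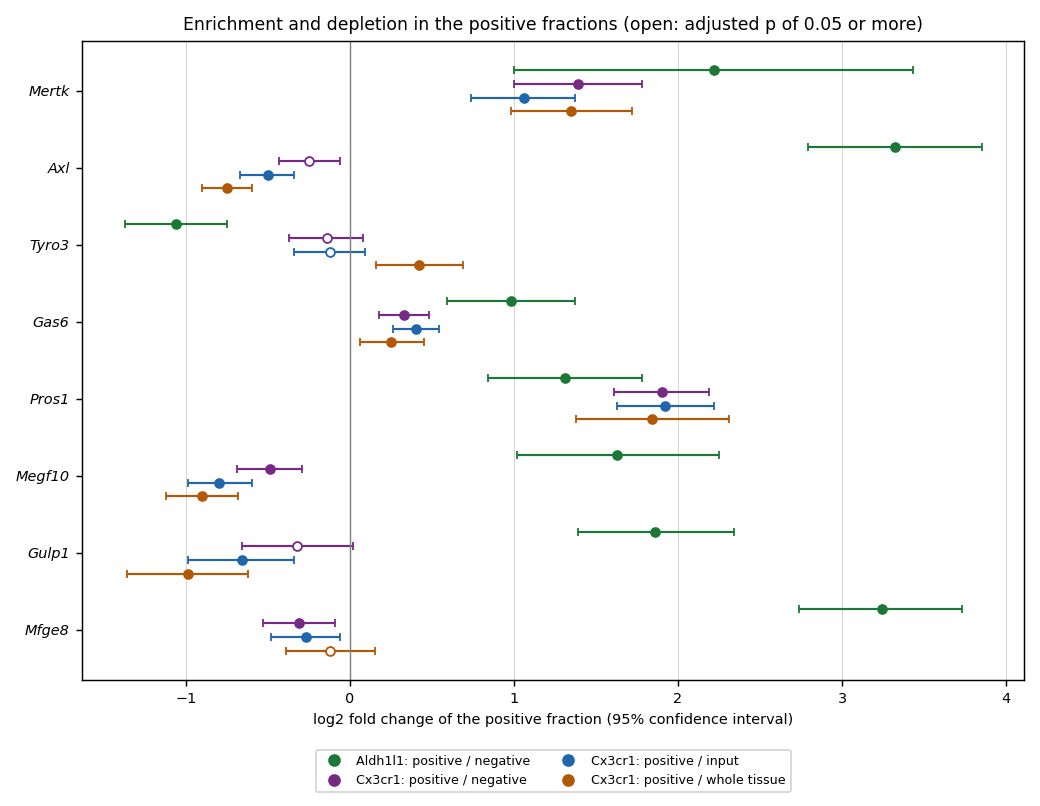
Log2 fold change of the positive fraction for each gene (points, with 95% confidence intervals), over the negative fraction in Aldh1l1-NuTRAP mice and over the negative fraction, input and whole tissue in Cx3cr1-NuTRAP mice; open points did not pass the threshold. Pros1 lay between 1.84 and 1.92 in all 3 Cx3cr1 comparisons, and Axl, Megf10 and Gulp1 lay to the right of 0 in the Aldh1l1 line (3.32, 1.63 and 1.86) and to the left in the Cx3cr1 line.

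The positive fractions of the lines were then compared with each other, which asks how the ribosome-bound RNA of astrocytes and of microglia differs in these genes. In the Aldh1l1 positive fraction 5 members were higher (Axl, Gas6, Megf10, Gulp1 and Mfge8) and 2 lower (Tyro3 and Pros1) than in the Cx3cr1 positive fraction, where 30.6% of all 13679 tested genes were higher and 33.1% lower. Mfge8 was 10.8-fold higher (3.44 ± 0.15, adjusted p = 1.83e-08), Axl 8.91-fold (3.16 ± 0.14, adjusted p = 2.65e-08), Gulp1 4.57-fold (2.19 ± 0.19, adjusted p = 3.1e-06) and Megf10 3.65-fold (1.87 ± 0.18, adjusted p = 4.75e-06). Every Aldh1l1 positive library exceeded every Cx3cr1 positive library for these 4 genes, and only 0.64% of tested genes rose more than Mfge8 and 1.24% more than Axl. Gas6 was 1.36-fold higher (0.44 ± 0.13, adjusted p = 0.0113) with overlapping levels in CPM, and this call was lost when libraries were scaled by total counts alone (0.13, adjusted p = 0.398) and without the positive fraction of mouse 293 (0.32, adjusted p = 0.0687). Pros1 was 1.65-fold lower (-0.72 ± 0.20, adjusted p = 0.00925) and Tyro3 1.82-fold lower (-0.86 ± 0.16, adjusted p = 0.000621), both without overlap. In this comparison 8 of 8 neuron markers (median -1.44), 8 of 8 oligodendrocyte markers (median -1.70), 4 of 5 markers of oligodendrocyte precursors (median -0.93) and the 8 of 10 microglia markers over 20 counts in both groups (median -5.65) were lower as well. The border macrophage markers summed to 2.71 to 4.37 CPM against 75.1 to 248, and since all 7 entered the test through the Cx3cr1 fraction alone no count of them is given. In the other direction 10 of 10 astrocyte markers (median 3.29), 6 of 6 choroid plexus markers (median 2.41) and 2 of 3 ependymal markers (median 1.75) were higher. The part of all these cells in the differences was not tested. Mertk was at 31.1, 122 and 106 CPM against 45.9 to 90.7, with mouse 290 below and mice 293 and 294 above all Cx3cr1 libraries. Its difference was 0.80 (95% confidence interval 0.05 to 1.56, adjusted p = 0.0606). It passed the threshold in 6 of 15 settings tried and missed it in 9. It passed without mouse 290 (1.18, adjusted p = 0.00135), without the Cx3cr1 positive fraction of mouse 194 (0.96, adjusted p = 0.029), and with a minimum of 100 counts, DESeq2, its size factors or all groups in one fit. Leaving out the Cx3cr1 positive fraction of mouse 155, 192, 209, 210 or 277 gave 0.73 to 0.86, without passing it. It was 0.46 (adjusted p = 0.305) without mouse 293, 0.64 (adjusted p = 0.195) without mouse 294 and 0.50 (adjusted p = 0.206) when libraries were scaled by total counts alone. Per the paper, Cx3cr1-NuTRAP brains were collected some weeks after tamoxifen, and later than the Aldh1l1-NuTRAP brains of its flow cytometry and imaging. Cell type, line and any such difference in timing are the same split, here and in the ratio below, and cannot be told apart.

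The difference between the lines was also taken on the ratio of positive to negative fraction, since both lines have these fractions. This ratio was larger in the Aldh1l1 line for Axl (by 3.52 ± 0.19 on the log2 scale, adjusted p = 6.45e-11), Mfge8 (3.51 ± 0.20, adjusted p = 1.38e-10), Gulp1 (2.14 ± 0.25, adjusted p = 8.72e-07), Megf10 (2.08 ± 0.23, adjusted p = 6.18e-07) and Gas6 (0.61 ± 0.14, adjusted p = 0.00141). It was smaller for Tyro3 (-0.96 ± 0.17, adjusted p = 0.000145) and Pros1 (-0.63 ± 0.24, adjusted p = 0.0333), where 25.6% of all tested genes were larger and 29.9% smaller. The result for Pros1 was lost with the mouse as a block (-0.58, adjusted p = 0.059), without mouse 290 (-0.39, adjusted p = 0.204), without mouse 194 (-0.42, adjusted p = 0.0744), without mouse 192 or 277, with no filter on low counts and when all 6 groups were fitted together. For Gas6 it was lost when libraries were scaled by total counts alone (0.34, adjusted p = 0.055). For Mertk the ratio differed by 0.77 (-0.22 to 1.76, adjusted p = 0.172), and by 0.90 without mouse 290 (adjusted p = 0.0339).

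**Figure D3:**
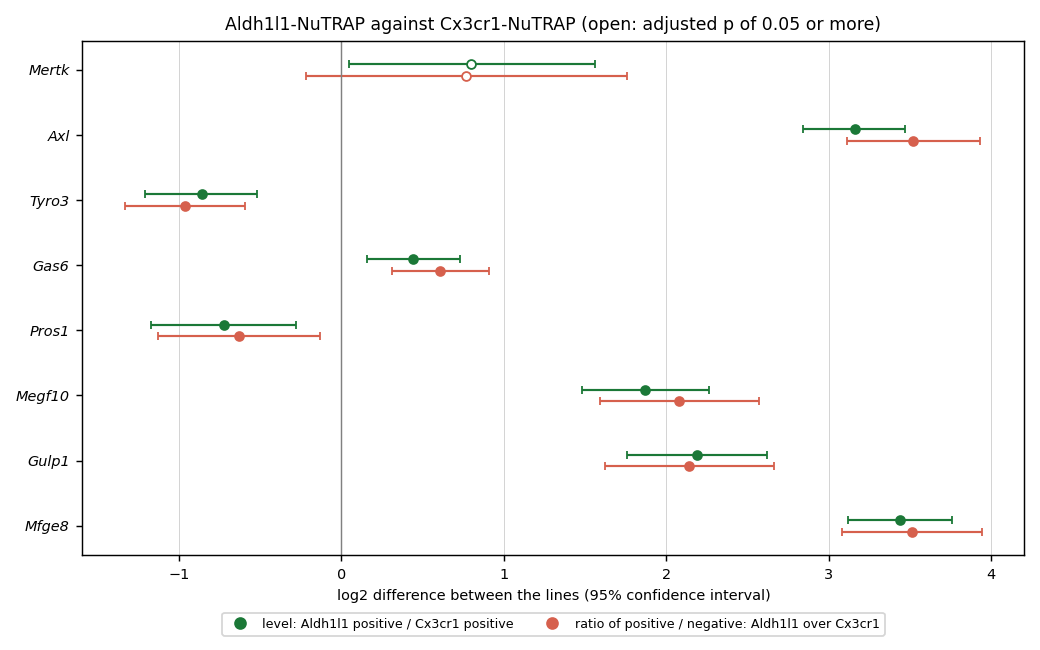
Log2 difference between Aldh1l1-NuTRAP and Cx3cr1-NuTRAP for each gene, as the level in the positive fraction and as the ratio of positive to negative fraction (points, with 95% confidence intervals; open points did not pass the threshold). Mfge8 and Axl lay beyond 3 on both measures, Tyro3 and Pros1 below 0, and the intervals of Mertk were the widest (0.05 to 1.56 for the level).

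To compare the genes with each other, levels were divided by the length of the exons of each gene and are given as CPM per kb. In the Aldh1l1 positive fraction Mfge8 was at 220 ± 3.71 (SD, n = 3), Gas6 at 78.3 ± 13.9, Axl at 66.1 ± 17.0, Mertk at 19.9 ± 11.2, Tyro3 at 13.7 ± 0.464, Megf10 at 11.3 ± 3.73, Pros1 at 6.52 ± 0.595 and Gulp1 at 3.62 ± 0.525. The ranges of Gas6 and Axl overlapped, as did those of Mertk, Tyro3 and Megf10. Among the Cx3cr1 positive fractions Gas6 led at 71.3 ± 5.92 (SD, n = 6), followed by Tyro3 at 30.9 ± 4.59, Mfge8 at 25.3 ± 4.69, Mertk at 14 ± 3.61, Pros1 at 13.3 ± 3.18, Axl at 9.19 ± 0.77, Megf10 at 3.83 ± 0.30 and Gulp1 at 0.983 ± 0.223. There each of Tyro3, Mfge8, Mertk and Pros1 overlapped the next gene in this order. Gas6 was first or second in both fractions. With the longest transcript as the length, Mfge8 came to 443 CPM per kb in the Aldh1l1 positive fraction, where Axl (78.0) drew level with Gas6 (78.3), and in the Cx3cr1 positive fraction Mfge8 (51) passed Tyro3 (42.9). Markers of neurons and astrocytes were also measured in the Cx3cr1 positive fraction, and the part of these cells in its levels was not tested.

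Among the TAM receptors themselves, Axl made up 66.7% ± 2.62 (SD, n = 3) of their summed CPM per kb in the Aldh1l1 positive fraction, Mertk 18.7% ± 7.08 and Tyro3 14.6% ± 4.78. Mouse 290 had the lowest share of Mertk, at 10.5%, and with the longest transcript as the length the order of the last pair turned, to 16% for Mertk and 17.2% for Tyro3. In the negative fraction of the same line Tyro3 took 72.7% ± 3.35. For the Cx3cr1 line, in the positive fraction Tyro3 held 56.9% ± 4.09 (SD, n = 6), Mertk 25.8% ± 4.44 and Axl 17.3% ± 3.29, and in the input Tyro3 held 63.0% ± 3.98, Axl 24.4% ± 2.43 and Mertk 12.7% ± 1.63. Mertk and Axl therefore exchanged places between input and positive fraction in the Cx3cr1 line. Of the ligands, Pros1 made up 15.6% ± 2.33 of Gas6 plus Pros1 in the Cx3cr1 positive fraction, with a range of 12.7% to 18.9%, and group means of 5.62% to 7.77% in the 5 other groups. These shares are descriptions and were not tested. In the Cx3cr1 positive fraction the summed neuron markers had a median of 7383 CPM, against 8195 in the input. The summed astrocyte markers had a median of 2929 CPM against 3781, and the part of these cells in the shares was not tested.

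**Figure D4:**
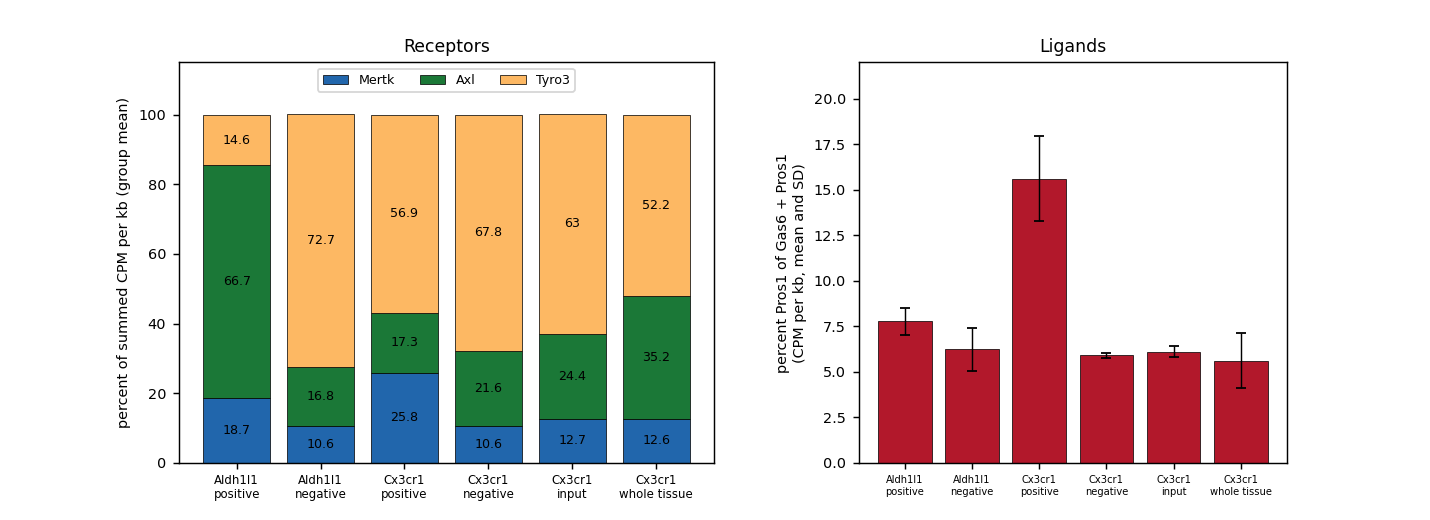
Left, mean share of Mertk, Axl and Tyro3 in their summed CPM per kb in each group (stacked bars, linear axis in percent); right, mean share of Pros1 in Gas6 plus Pros1 (bars, with SD). Axl took 66.7% in the Aldh1l1 positive fraction, Tyro3 was the largest share in the other 5 groups, and the share of Pros1 was highest in the Cx3cr1 positive fraction (15.6%).

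Input and whole tissue of the Cx3cr1-NuTRAP mice were compared to see how the members differ before any binding to beads. Tyro3 was 1.45-fold higher in the input (0.54 ± 0.09, adjusted p = 0.000443) and Axl 1.19-fold lower (-0.26 ± 0.06, adjusted p = 0.00834). Inputs held 183 to 231 CPM of Tyro3, above every whole tissue library. Mertk was 1.22-fold higher (0.28 ± 0.10, adjusted p = 0.0483), but this call was lost in most of the other settings (0.20 to 0.34 over all of them). Thus 2 of 8 members were higher and 1 lower, against 16.3% and 14.2% of all tested genes. Without the whole tissue of mouse 210, the library with the fewest counts, 6 members were called, Gas6 (-0.20), Gulp1 (-0.39) and Mfge8 (0.19) being added, while the genes called rose to 2818 higher and 2800 lower from 2216 and 1927. In the same comparison 8 of 8 endothelial markers were lower in the input (median -1.34, summed 114 to 140 CPM against 201 to 374), 7 of 8 oligodendrocyte markers were lower (median -0.41), 4 of 10 astrocyte markers were lower (median -0.24) and 4 of 8 neuron markers were higher and 1 lower (median 0.24). Also lower were 5 of the 6 pericyte and smooth muscle markers over 20 counts in both groups (median -0.94, with Myh11 at -2.68), 3 of 3 ependymal markers (median -0.93) and 2 of 5 markers of oligodendrocyte precursors (median -0.31), while Acta2 was listed at 0 in every library. Choroid plexus markers summed to 836 to 1005 CPM in the input and 199 to 984 in whole tissue, and 1 of the 4 over 20 counts in both groups was higher (median 0.76). The 10 microglia markers had a median of -0.02, and 0 of 10 passed the threshold. The part of these cells in the differences of Tyro3 and Axl was not tested.

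The wider engulfment machinery was read in the same way between the positive fractions of the lines. Where a gene enters a test through 1 group alone, the filter favours a difference toward that group, and the counts and medians of these lists therefore cover genes that passed the minimum of 20 counts in each of the compared groups. Over all 12305 such genes the median log2 fold change was -0.01, with 32.3% higher in the Aldh1l1 positive fraction and 30.1% lower. Counts of a few genes near these shares, as for the adaptors, are not a result about a list. Of 9 other engulfment receptors, 2 were higher and 4 lower (median -0.28), and 6 more entered the test through 1 group, 5 of them through the Cx3cr1 fraction. The receptors higher in the Aldh1l1 positive fraction were Itgav (1.12 ± 0.12, adjusted p = 1.72e-05), the αv chain to which Mfge8 binds, and Adgrb1, listed as Bai1 (0.74 ± 0.18, adjusted p = 0.00453), while Trem2 (-5.98 ± 0.48) and the scavenger receptor Stab1 (-4.46 ± 0.40) were the furthest in the other direction. Of 20 adaptors and cytoskeletal regulators, 7 were higher and 4 lower (median 0.18). Dock1, the exchange factor for Rac1 that acts with Elmo proteins, was higher (2.35 ± 0.17, adjusted p = 7.49e-07), as was the kinase Src (1.30 ± 0.10). The blood cell proteins Vav1 (-6.14 ± 0.39) and Rac2 (-4.53 ± 0.43) entered the test through the Cx3cr1 fraction alone. Of 5 genes for the vitamin K-dependent carboxylation that Gas6 and Pros1 need, 2 were higher, Calu (1.24 ± 0.11) and Vkorc1 (0.93 ± 0.21), and 0 lower (median 0.35). For the nuclear receptors known to raise Mertk and Axl, 4 of 7 were higher and 0 lower (median 0.56), led by Nr1h3 (LXRα, 1.04 ± 0.19) and Rxra (0.61 ± 0.18).

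Genes of TAM receptor shedding and feedback were split, with 1 of 7 higher and 2 lower (median -0.33). The 1 that was higher was Rhbdf1, a partner of the sheddase Adam17 (1.46 ± 0.32). Socs1 (1.28 ± 0.29) entered through the Aldh1l1 fraction alone and Socs3 (-1.45 ± 0.28) through the Cx3cr1 fraction alone. Of 15 genes that expose phosphatidylserine or tag targets in other ways, 4 were higher and 5 lower (median -0.17), near the shares over all genes, the outermost being Plscr1 (1.86 ± 0.24) and Anxa5 (1.79 ± 0.16) on one side and the complement genes C1qa (-6.36 ± 0.49) and C1qb (-6.28 ± 0.51) on the other. Of 4 genes of inhibitory signals, Sirpa was the 1 that was higher (0.34 ± 0.12, adjusted p = 0.0286) and 1 was lower (median -0.08), whereas Siglech (-5.82 ± 0.58) and Siglece (-4.73 ± 0.71) entered through the Cx3cr1 fraction alone. Within the Aldh1l1 line, by the same restriction, the positive fraction was higher than the negative for 4 of 7 nuclear receptors, 4 of 6 shedding and feedback genes, 3 of 5 carboxylation genes and 9 of 19 adaptors, and lower for 0, 0, 0 and 1 of them, against 26.9% higher and 23.4% lower over all 12132 such genes. Of the other receptors 3 of 9 were higher and 4 lower, of the genes that tag targets 4 of 14 were higher and 5 lower, and of the inhibitory signals 1 of 4 was higher and 1 lower. Within the Cx3cr1 line the positive fraction was higher than the input for 8 of 13 other receptors, 3 of 5 inhibitory signals and 7 of 17 genes that tag targets, and lower for 2, 1 and 3 of them, against 22.8% higher and 26.1% lower over all 13161 such genes. Msr1 (2.86), Cd22 (2.61) and Siglece (3.46) entered that test through the positive fraction alone. Of the adaptors 7 of 22 were higher and 6 lower, of the nuclear receptors 4 of 7 were higher and 1 lower, of the shedding and feedback genes 3 of 7 were higher and 1 lower, and of the carboxylation genes 1 of 5 was higher and 1 lower. C1qa, C1qb, Siglech and Trem2 are known microglia genes, and 3 of these 4 are also among the microglia markers used for the check above.

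Across the 29 libraries and 14114 genes, the genes whose log2 CPM followed each member most closely by Pearson's r were Ahcyl1, Abhd4 and Agpat3 for Axl (0.989 to 0.990), Tubb2b, Slc9a3r1 and Aldh1l1 for Mfge8 (0.989 to 0.992), Slc4a4, Clcn3 and Sema6d for Megf10 (0.969 to 0.983), and Otud6b, Fam172a and Eps15 for Gulp1 (0.959 to 0.970). For Mertk they were Frmd4a, Asah1 and Ucp2 (0.927 to 0.949), for Pros1 Ctsa, Rinl and Cmtm6 (0.961 to 0.972), for Gas6 Lrp5, Gpr56 and Pnpla7 (0.947 to 0.958) and for Tyro3 Zc3h11a, AI414108 and BC018242 (0.925 to 0.941). The libraries share mice, line and fraction, and with ranks (Spearman) at most 1 of the 3 genes of a member remained among its closest 3.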

How the data were processed

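The 29 libraries were sequenced by the authors from polyA-selected, directional libraries, and per the paper's methods the reads were aligned to mm10 in Strand NGS. Per the file headers the values are over RefSeq genes. The deposited raw values are estimated counts per gene (82.8% of the nonzero values are not whole numbers) and were rounded to whole counts before testing. The log2 values that the authors normalised with DESeq were deposited too and not used. The 8 members and the gene lists were chosen with earlier results of these data known. Every member is named, and of each list up to 2 called genes in each direction, those with the largest fold change between the positive fractions. The values of 1 such gene are not reported here. Libraries were grouped by genotype and fraction as labelled, and replicates are separate mice.

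A gene entered a test where all libraries of 1 of the compared groups exceeded 20 counts, and was tested in edgeR 4.0.16 (R 4.3.3) with TMM scaling and the robust quasi-likelihood test, two-sided, with only the compared groups in the fit and Benjamini-Hochberg adjustment over all genes tested. Gene lists were counted over the genes that exceeded this minimum in both groups, a restriction chosen after the data were seen. The threshold was an adjusted p of 0.05. Means are given with SD, fold changes with SE. Likeness used log2 CPM with a prior count of 2. Depth was 4261358 to 26858047 counts per library, and the lowest member count was 26, so counting error was largest for Gulp1. The alternatives were DESeq2 1.42.0, its size factors, scaling by total counts, other filters, all groups in one fit, the mouse as a block and leaving out each library. Fractions of 1 mouse share an animal number, which pairs them. Deviations of paired libraries from their group means correlated at 0.484 to 0.693 in the 3 Aldh1l1-NuTRAP mice and at -0.265 to 0.19 between positive fraction and input in the 6 Cx3cr1-NuTRAP mice. Exon lengths came from the GENCODE annotation and promoters from RefSeq.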

Additional observations from a re-analysis of the deposited data

Results flagged for a closer look

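Single libraries stood apart from the rest of their group in 5 of the 32 groups of 5 or 6 libraries that were examined, by the gap to the nearest library as a share of the range, and chance flags about 1 in 20 such groups. In the Cx3cr1 positive fraction Mertk was at 90.7 CPM in mouse 194, the library with the most microglia and border macrophage marker RNA. In the Cx3cr1 negative fraction mouse 155 was low in Mertk (13.6 CPM), Axl (42.6 CPM) and Megf10 (31.3 CPM), and it also had the lowest summed astrocyte markers of that group (2743 CPM). Pros1 was at 14 CPM in the negative fraction of mouse 194, a small gap in a narrow group that ended at 15.1 CPM.

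The ratio of positive to negative fraction differed between the lines for 7 members by the interaction term in edgeR. On the log2 scale, Aldh1l1 line minus Cx3cr1 line, it differed by 3.52 for Axl, 3.51 for Mfge8, 2.14 for Gulp1, 2.08 for Megf10, 0.61 for Gas6, -0.63 for Pros1 and -0.96 for Tyro3. The result for Pros1 was lost without mouse 290 (-0.39) and without mouse 194 (-0.42), and that for Gas6 was lost under scaling by total counts (0.34).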

How the results depend on the processing

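Member fold changes were recomputed 820 times under the alternatives. Of these, 757 kept the direction and the side of the threshold, 45 lost a call, 18 gained one and 0 reversed, and 40 of the 56 pairs of member and comparison kept their call throughout. Between input and whole tissue 5 members were called by DESeq2 instead of 3, and with all groups in one fit the genes higher in the input numbered 1119 instead of 2216; the cause was not tested. When 1 library or mouse was left out, the members called ranged from 2 to 6 in that comparison, with 6 without the whole tissue of mouse 210. In the Aldh1l1 line such fits left 1979 to 4887 genes higher and 1600 to 4845 lower (3568 and 3304 with all mice), the lowest without mice 293 and 294 and the highest without mouse 290. Between Cx3cr1 positive and negative fraction they left 1151 to 2090 genes higher (1151 without mouse 194) and 570 to 2183 lower (570 without mouse 192, 867 without mouse 194 and 867 without mouse 277).

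The mouse as a replicate block took away the call of Mfge8 against the negative fraction (-0.33), of Gas6 against whole tissue (0.26) and of Pros1 in the ratio between the lines (-0.58), and changed no other call of a member. Scaling by total counts moved the median log2 fold change of all genes from 0.037 to -0.311 in the Aldh1l1 line and from -0.077 to -0.387 between the positive fractions, and no member turned direction. Depth limited Gulp1 and Pros1 most, which were at 26 and 31 counts in their lowest libraries. With a minimum of 100 counts Gulp1 was not tested in the 4 comparisons within the Cx3cr1 line.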
